A study of Mus musculus with 12 samples.

Results

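The cytokine response described here is that of pancreatic islets labelled Ptpn2 bKO, read here as a knockout of Ptpn2 in beta cells. It was measured as the difference between 3 RNA-seq libraries of cytokine-treated islets and 3 libraries of untreated islets of the same label, 6 of the 12 libraries of the study. Of the 55536 genes in the deposited count table, the 19800 kept by the filterByExpr function of edgeR over the 4 groups were tested, and these genes are the members of the response. No measured change was used to choose them.

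The study sequenced total RNA of mouse islets, taken at 16 weeks of age on a mixed strain background of C57BL/6J. The mice were either labelled PTPN2 -/- (bKO) or were fl/fl controls, labelled PTPN2 +/+. Treated islets were kept for 24 h in RPMI culture medium to which IFN-gamma (INF-gamma in the labels), IL-1beta and TNF alpha were added, and the other islets received no treatment. No time in culture is known here for the untreated islets. If they were not cultured alike, effects of culture and of cytokines cannot be told apart, and this was not tested. Islets of each genotype came from 3 mice, so the 6 libraries of a genotype must share mice, and the labels do not say which. The p-values therefore measure the spread between libraries and not with certainty that between animals. The labels name neither the Cre driver nor the floxed exon, and a knockout in beta cells leaves the gene intact in the alpha, delta, endothelial and immune cells that islets also hold.

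Islets are clusters of endocrine cells, most of them insulin-secreting beta cells, that are exposed to TNF, IL-1beta and IFN-gamma when immune cells invade them in type 1 diabetes. IFN-gamma acts through the kinases JAK1 and JAK2 on STAT proteins, which enter the nucleus and bind GAS elements, and STAT complexes with IRF9 bind ISRE elements. TNF and IL-1beta release NF-kB, which binds kB elements. Ptpn2 encodes a tyrosine phosphatase that dephosphorylates JAK and STAT proteins, and beta cells are known to answer the 3 cytokines with nitric oxide synthesis, chemokine secretion, antigen presentation and a loss of mature functions.

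The letters of these elements can be read in the promoters of strongly responding genes, shown here to place the response on the DNA. Each line gives the 120 bases before the RefSeq transcription start, 5′ to 3′ on the strand of the gene, in GRCm38.p6, and capitals mark the matched element. The first group holds a GAS-like match (TTC, then NNN, then GAA), the second an ISRE-like match (GAAA, then NN, then GAAA, or the reverse complement) and the last a kB-like match (GGGA, then N, then TTTCC, or the reverse complement). The 8 genes were chosen after their values were seen.
Irf1 (chr11:53769894-53770013, plus strand): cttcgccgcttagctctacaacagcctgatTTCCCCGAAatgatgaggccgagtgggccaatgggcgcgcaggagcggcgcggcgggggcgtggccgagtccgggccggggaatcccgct
Icam1 (chr9:21015820-21015939, plus strand): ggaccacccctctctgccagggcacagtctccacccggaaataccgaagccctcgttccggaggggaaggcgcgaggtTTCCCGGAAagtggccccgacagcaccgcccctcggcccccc
Fas (chr19:34290539-34290658, plus strand): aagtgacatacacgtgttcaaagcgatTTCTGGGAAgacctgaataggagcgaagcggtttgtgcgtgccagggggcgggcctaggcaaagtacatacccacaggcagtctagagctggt
Gbp2 (chr3:142620543-142620662, plus strand): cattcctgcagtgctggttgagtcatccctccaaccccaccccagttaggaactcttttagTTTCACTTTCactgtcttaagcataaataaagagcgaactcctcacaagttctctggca
Isg15 (chr4:156200819-156200938, minus strand): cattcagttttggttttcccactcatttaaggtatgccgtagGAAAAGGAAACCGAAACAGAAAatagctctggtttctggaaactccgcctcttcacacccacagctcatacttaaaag
Igtp (chr11:58199436-58199555, plus strand): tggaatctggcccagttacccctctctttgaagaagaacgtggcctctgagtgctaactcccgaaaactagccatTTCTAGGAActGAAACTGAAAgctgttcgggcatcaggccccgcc
Nfkbia (chr12:55492648-55492767, minus strand): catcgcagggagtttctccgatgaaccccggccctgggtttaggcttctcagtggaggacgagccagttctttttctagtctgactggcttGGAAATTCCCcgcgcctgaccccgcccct
Cxcl1 (chr5:90891125-90891244, plus strand): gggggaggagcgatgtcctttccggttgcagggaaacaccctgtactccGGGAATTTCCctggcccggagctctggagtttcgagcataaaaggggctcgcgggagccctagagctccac

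The GAS-like match lies 81 bases before the start in Irf1, 33 in Icam1 and 84 in Fas. Isg15 carries 3 overlapping ISRE-like matches, 68, 62 and 56 bases before the start, and Igtp holds a GAS-like match 36 and an ISRE-like match 24 bases before it. Over windows of 300 bases, 250 before the start to 50 after it, both strands were searched in the 13119 tested genes that matched a RefSeq promoter. An ISRE-like match was found in 3.77% of these genes, a GAS-like match in 8.35% and a kB-like match in 0.556%. Of 41 matched interferon target genes, 56.1% held an ISRE-like match and 39% a GAS-like match. A kB-like match was found in 18.8% of 16 chemokine genes and 18.2% of 33 NF-kB components and targets, and of the latter 24.2% held a GAS-like and 3.03% an ISRE-like match. The chemokine genes held an ISRE-like match in 12.5% and a GAS-like match in 6.25%, and 19 class I genes in 26.3% and 10.5%. Of 23 matched beta cell transcription factor genes, most of which fell with cytokines, 8.7% held an ISRE-like, 8.7% a GAS-like and 0% a kB-like match. GAS-like and ISRE-like matches overlapped in 14 of the 16705 windows, GAS-like and kB-like ones in 2. A match is a string of letters in this window and was not tested for binding.

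Before the results, 1 library needs to be set apart. Treated replicate 2 correlated with treated replicates 1 and 3 at Pearson 0.972 and 0.976 (log2 CPM across genes, which are not independent), against 0.988 between replicates 1 and 3. Of the genes at 5 CPM or more (read counts scaled to library size), 862 and 563 lay over 2-fold apart from it, against 56 between replicates 1 and 3. The genes of the glucose sensing and maturity list held 9.60% of its counts, against 16.3% and 15% in treated replicates 1 and 3 and 15.5% to 16.7% in untreated libraries. Stellate and fibroblast markers held 0.942% of its counts against 0.380% and 0.369%, and ductal markers 1.09% against 0.600% and 0.760%. Ighm, the immunoglobulin heavy chain of B cells, stood at 255 CPM in it, 0.0235 and 0.0671 in the other treated libraries and 6.16, 55.5 and 0.542 in untreated replicates 1, 2 and 3. Depth differed between the groups as well, with totals from 59411699 to 62955944 reads in the untreated and from 47064061 to 57223340 in the treated libraries. No p-value was computed for these departures. Several lists that moved when treated replicate 2 was left out are given with and without it, but not all.

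Ptpn2, the targeted gene, was at 36.7, 33.8 and 35.5 CPM in untreated replicates 1, 2 and 3 and at 111, 84.2 and 107 CPM in the treated ones. All treated libraries lay above all untreated ones, and the rise was 2.85-fold (log2 1.51, SE 0.10, edgeR adjusted p = 2.1e-07). The RNA was therefore present and rose in the islets labelled bKO. A count over the whole gene does not test the removal of an exon, and which cells the reads came from was not tested.

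With cytokines 12358 of the 19800 genes changed (62.4%) at an adjusted p under 0.05, the threshold for a called gene here (Benjamini-Hochberg adjustment over edgeR's quasi-likelihood p-values). Of all tested genes 28.8% rose and 33.6% fell, and the counts in each list below are to be read beside these shares. The median log2 fold change over all genes was -0.06, the quartiles were -0.70 and 0.54, and the median SE was 0.17. At least 2-fold changes covered 2494 higher genes (12.6%) and 3261 lower genes (16.5%). The balance turned with size: at 8-fold or more 543 genes were higher and 383 lower, and at 128-fold or more 80 and 14. The 3 treated libraries lay all above the 3 untreated ones for 29.8% of genes and all below for 35.3%, 65% in all. Over the 2000 most variable genes, 84.6% of the variance between the 6 libraries lay along a first principal component with all untreated libraries at one end and all treated ones at the other. The second, with 7.21%, had treated replicate 2 at its end. Scaling the counts by library totals alone moved the median of all genes by -0.23 and gave 4000 higher and 8693 lower genes, a share of higher genes among the calls of 31.5% in place of 46.2%. Changes near that size are therefore read relative to it.

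**Figure D1:**
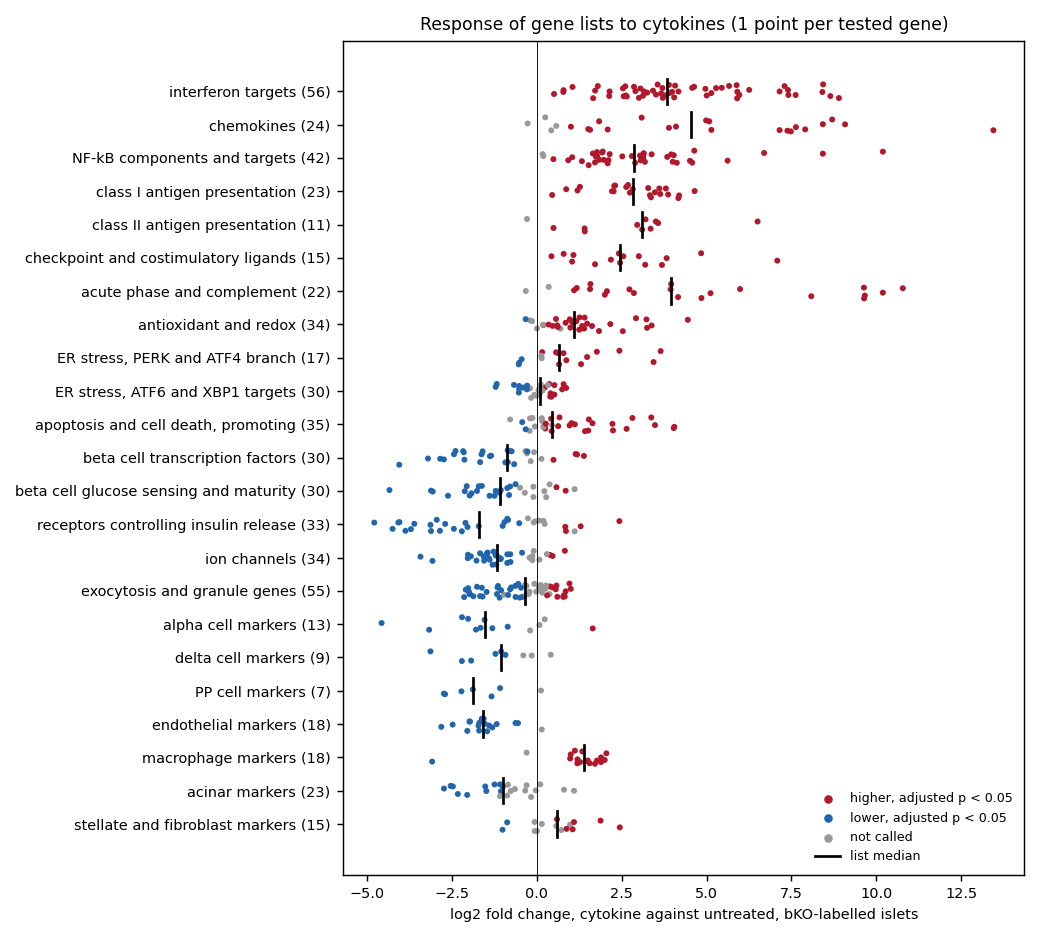
Log2 fold change of each tested gene (point) in 23 gene lists, cytokine against untreated, in islets labelled bKO (x axis); the number of genes is in brackets and the bar is the list median. Red points passed the test as higher, blue as lower and grey did not pass; the interferon targets are all red with a median of 3.84, and most endocrine and endothelial markers are blue.

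The interferon targets rose as a whole, 56 of 56 genes, against 28.8% of all tested genes, and their median log2 fold change was 3.84 against -0.06 over all genes. The guanylate-binding and immunity-related GTPases, which attack the vacuoles of intracellular microbes, rose in 17 of 17 genes with a median of 6.25. Gbp6 (chr5:105270702-105293698, minus strand) went from 1.76, 2.00 and 1.80 CPM to 347, 270 and 329 (log2 7.41, SE 0.16, edgeR adjusted p = 1.1e-10). Its treated libraries lay far above the untreated ones, and in all 56 genes of the list the groups did not overlap. Gbp and immunity-related GTPase genes are close copies, so reads may be shared among them. Gbp2, whose promoter is shown above, rose from 11.5, 16.7 and 10.1 CPM to 5346, 5121 and 4860.

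The transcription factors of the pathway rose in 8 of 8 genes (median 2.88). Irf1 (chr11:53770014-53778374, plus strand), which IFN-gamma induces, went from 68.9, 68.7 and 62.8 CPM to 793, 677 and 814, an 11.4-fold rise (log2 3.51, SE 0.090, edgeR adjusted p = 2.4e-10). Replicate 2 was the lowest treated library, and the groups did not overlap. The antiviral effectors rose in 23 of 23 genes (median 3.66), among them Ifit2, which binds foreign RNA (log2 5.97, SE 0.16), and the genes of ubiquitin-like modification in 8 of 8 (median 2.74). The smallest rises of the list were those of Trim25 (log2 0.51), Irf2 (0.78) and Eif2ak2 (0.79), singled out after their values were seen.

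The receptors and relays of cytokine signals were split. Of 43 JAK-STAT genes 22 rose and 10 fell, with a median of 0.41. Ifngr2, a chain of the IFN-gamma receptor (chr16:91547072-91565623, plus strand), rose from 32.4, 29.7 and 29.7 CPM to 106, 102 and 104 (log2 1.76, SE 0.066), and Jak2, the kinase bound to it, from 51.4, 50 and 49.1 to 153, 190 and 162 (log2 1.75, SE 0.088). Socs1 (chr16:10782240-10785536, minus strand), whose product inhibits JAK kinases, rose 39-fold, from 3.24, 2.38 and 2.46 CPM to 98.4, 114 and 103 (log2 5.29, SE 0.16, edgeR adjusted p = 7.3e-10). The feedback inhibitor Socs3 stood at 167, 130 and 119 CPM without and 144, 108 and 151 with cytokines, and Ptpn11, another tyrosine phosphatase of the pathway, at 241, 267 and 263 without and 280, 241 and 255 with them. The groups overlapped in both genes, and the 95% interval of the log2 fold change of Ptpn11 lay within 0.5 of 0. Of the 14 receptors in the list 10 rose and 3 fell. Those that fell were Prlr, the prolactin receptor, from 119, 167 and 175 CPM to 22.9, 15.2 and 19.8 (log2 -2.99, SE 0.19), Ghr, the growth hormone receptor, by 1.11 on the log2 scale (SE 0.11), and Il6ra, which binds interleukin-6, by 1.72 (SE 0.097). Of the 16 genes of the prolactin and serotonin pathway, 1 rose and 6 fell, against 28.8% and 33.6% of all genes. Among the fallen was Ddc, which makes serotonin and dopamine (log2 -2.43, SE 0.21).

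The NF-kB components and targets rose in 40 of 42 genes, with a median of 2.85, and Cyld and Birc2 did not pass the test. Tnfaip3, the feedback protein A20 (chr10:19000910-19015657, minus strand), went from 10.9, 11.3 and 9.05 CPM to 236, 232 and 246, 22.8-fold higher (log2 4.51, SE 0.092, edgeR adjusted p = 5.9e-11). Icam1, an adhesion molecule for leukocytes (chr9:21015985-21028817, plus strand), rose from 16.6, 19.3 and 16.1 to 882, 823 and 849 CPM (log2 5.62, SE 0.13). Fas, the death receptor (chr19:34290666-34327772, plus strand), rose from 1.68, 1.58 and 1.67 to 29.1, 25.7 and 26.0 CPM (log2 4.03, SE 0.10). The treated values of these genes lay within a narrow band in all 3 libraries, replicate 2 included. Among the 27 receptors and relays of interleukin-1 and TNF, 18 rose and 3 fell (median 0.84). Il1r1, the signalling receptor of IL-1beta, fell from 590, 652 and 637 CPM to 166, 109 and 135 (log2 -2.20, SE 0.16), whereas Irak3, an inhibitor of the same route, rose by log2 2.73 (SE 0.11), Tnfrsf1a, the main TNF receptor, by 1.42 (SE 0.090) and Il1a by 4.46 (SE 0.28).

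Most chemokine genes rose. Of 24, 20 rose and 0 fell, with a median of 4.54. Cxcl9, which draws T cells (chr5:92321347-92328079, minus strand), went from 0.107, 0.481 and 0.0619 CPM to 2304, 3093 and 2067 (log2 13.45, SE 0.50, edgeR adjusted p = 2.5e-09), the largest rise among genes that reached 5 CPM. Cxcl10, a ligand of the same receptor, rose from 1.68, 2.48 and 1.28 to 719, 776 and 776 CPM (log2 8.70, SE 0.22), and Cxcl11 by log2 9.08 (SE 0.19). Cxcl1, which draws neutrophils, went from 2.07, 2.01 and 2.01 CPM to 334, 369 and 387 (log2 7.48, SE 0.22), Cxcl2 rose by 7.63 (SE 0.22), and Ccl2, which draws monocytes, by 7.15 (SE 0.22). Cxcl12, Cxcl13, Cxcl14 and Ccl25 did not pass the test.

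Class I antigen presentation rose in 23 of 23 genes (median 2.83), the immunoproteasome in 5 of 5 (median 2.74). Tap1, which carries peptides into the endoplasmic reticulum (chr17:34187553-34197225, plus strand), rose from 19.5, 22.8 and 19.6 CPM to 488, 496 and 568 (log2 4.65, SE 0.13, edgeR adjusted p = 3.7e-10). Psmb9 and Psmb8, catalytic subunits of the immunoproteasome, rose 12.4-fold and 10.3-fold. The genes Tap1, Psmb8, Psmb9 and Tap2 are neighbours on chromosome 17. Class II genes, normally active in immune cells, rose in 10 of 11 (median 3.10). Ciita, their master regulator (chr16:10480059-10528418, plus strand), went from 0.306, 0.467 and 0.309 CPM to 25.1, 47 and 26.8 (log2 6.50, SE 0.35), and Cd74, the invariant chain, from 70.7, 67.8 and 52.6 to 554, 855 and 543 (log2 3.35, SE 0.20). Replicate 2 was the highest treated library for both, and B cell markers, which class II genes accompany, held 0.0247% of its counts against 0.000155% in each of the other treated libraries. Without it the list still had 10 higher genes, with a median of 2.92, and the part of B cells was not tested.

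The list of ligands that restrain or costimulate T cells, which also holds the enzyme gene Ido1, rose in 15 of 15 genes (median 2.45). Cd274, which encodes PD-L1 (chr19:29367455-29388095, plus strand), went from 24.2, 23.6 and 21.2 CPM to 721, 566 and 688, 28.6-fold higher (log2 4.84, SE 0.11, edgeR adjusted p = 1.1e-10). Lgals9, the galectin that binds TIM-3, rose by log2 3.82 (SE 0.15) and Ido1, which breaks down tryptophan, by 7.08 (SE 0.43), from 0.0459, 0.0583 and 0.0619 CPM to 4.35, 8.54 and 10.4. Of the 19 tested genes of tryptophan and NAD metabolism 7 rose and 6 fell, against 28.8% and 33.6% of all genes. Nampt, which recycles nicotinamide, was at log2 2.85 (SE 0.069) and Naprt, which starts from nicotinic acid, at -1.17 (SE 0.11).

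Markers of immune cells moved beside these groups. Macrophage markers rose in 16 of 18 genes and 1 fell (median 1.39), and their summed share of the counts went from 0.0260% to 0.0353% in untreated libraries to 0.0643% to 0.0899% in treated ones. C1qa went from 47.3, 44.7 and 39.3 CPM to 176, 119 and 135 (log2 1.71, SE 0.13) and Cd68 rose by 1.77 (SE 0.16), whereas Cx3cr1, the fractalkine receptor of resident macrophages, fell from 12, 13.3 and 8.90 CPM to 0.847, 2.54 and 0.559 (log2 -3.08, SE 0.42). The T cell genes Cd3e and Cd3d were near 0, with 10 and 7 counts in the 3 untreated libraries and 7 and 6 in the treated ones, and the B cell gene Ms4a1 had 2 and 2. Of the 4 tested T cell genes Lck rose (log2 1.57, SE 0.24), Trac fell (-1.56, SE 0.38) and 2 did not pass, and of the 4 tested B cell genes 0 rose and 1 fell. In bulk RNA, more cells of a type and more RNA per cell cannot be told apart, and how much of the inflammatory RNA came from macrophages was not tested.

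Nos2 was among the genes with the largest rises. It encodes the inducible nitric oxide synthase (chr11:78920787-78960254, plus strand) and went from 0.291, 0.248 and 0.325 CPM to 1351, 952 and 1261 (log2 12, SE 0.36, edgeR adjusted p = 6.4e-10). Among genes of arginine supply and use, Ass1, which rebuilds arginine from citrulline, rose from 44.6, 40.5 and 44.7 CPM to 223, 434 and 254 (log2 2.81, SE 0.26), and Slc7a1, an arginine transporter, by log2 0.50 (SE 0.056). Arg2, an arginase, which consumes arginine, rose from 0.153, 0.146 and 0.186 CPM to 2.78, 4.76 and 3.42 (log2 4.49, SE 0.34). For the cofactor tetrahydrobiopterin, Gch1, its first enzyme, had log2 0.28 (SE 0.12, edgeR adjusted p = 0.054) with overlapping groups, and Pts, the next enzyme, fell by 0.97 (SE 0.090). In the whole list 6 of 17 genes rose and 3 fell (median 0.23). Acute phase and complement genes rose in 20 of 22 (median 3.95), with C1ra, a protease of the classical complement route, at log2 5.99 (SE 0.21) and Cfb, of the alternative route, at 4.85 (SE 0.19).

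**Figure D2:**
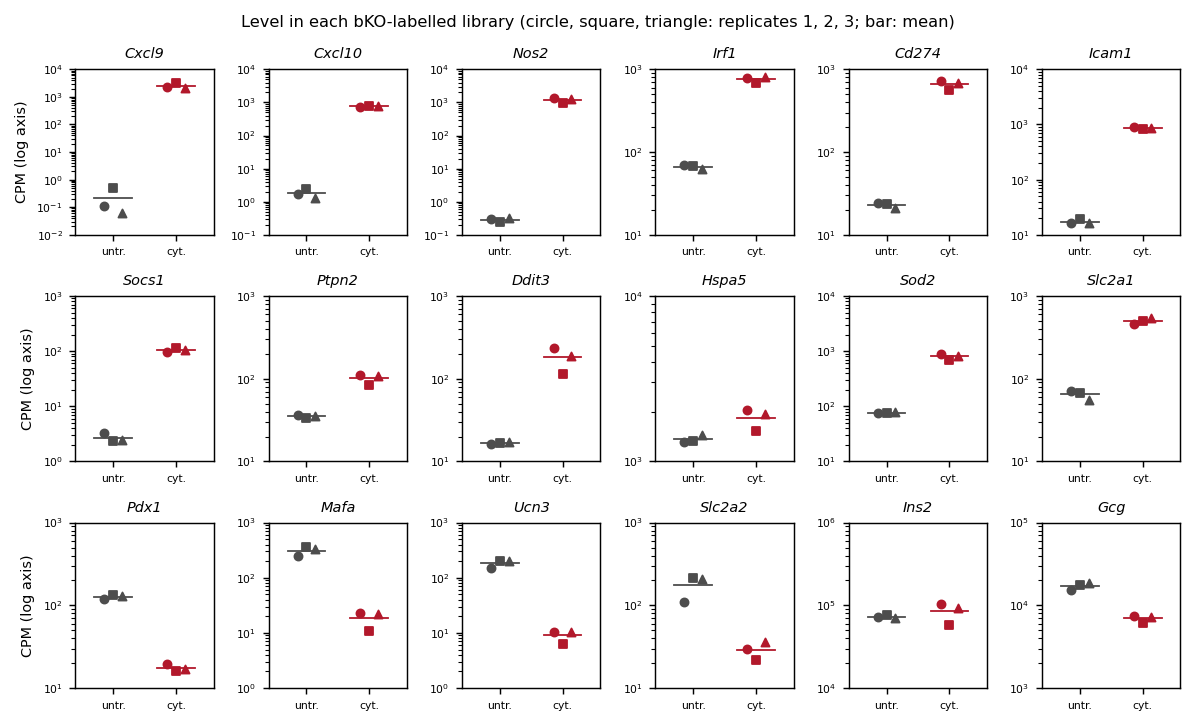
CPM on log axes of 18 genes in each library labelled bKO, untreated (grey) and cytokine-treated (red); circles, squares and triangles are replicates 1, 2 and 3 and bars are group means. The groups stand apart in each panel except Ins2, where treated replicate 2 lies below the untreated libraries and treated replicates 1 and 3 above them.

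In the same libraries most regulators of beta cell identity were lower. Of 30 transcription factors 21 fell and 4 rose, against 33.6% and 28.8% of all genes, with a median of -0.89. Mafa, which drives insulin transcription in mature beta cells (chr15:75745490-75748228, minus strand), went from 245, 354 and 331 CPM to 23.1, 10.8 and 22.4, 16.6-fold lower (log2 -4.05, SE 0.29, edgeR adjusted p = 3.4e-07). Pdx1 (chr5:147269959-147275848, plus strand), required for the pancreas and for beta cells, went from 118, 132 and 128 CPM to 19.3, 16.1 and 17.2, 7.18-fold lower (log2 -2.84, SE 0.11). Nkx6-1 (chr5:101658139-101664996, minus strand) went from 267, 299 and 302 to 122, 57.4 and 108 CPM (log2 -1.59, SE 0.22). Replicate 2 was the lowest treated library for all 3, and every treated library lay below every untreated one. Rfx6 (-2.44, SE 0.15), Isl1 (-2.15, SE 0.13), Etv1 (-2.74, SE 0.14) and Esrrg (-3.20, SE 0.19), factors of endocrine fate and metabolic maturation, fell too, whereas the 4 that rose were Esr1, Rxrg, Foxa1 and Glis3, named after their values were seen. In bulk RNA, fewer beta cells and less RNA of a gene per beta cell cannot be told apart.

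The genes of glucose sensing and maturity fell in 20 of 30 and rose in 2 (median -1.08), and without treated replicate 2 fell in 20 and rose in 4 (median -0.79). Ucn3, a peptide of mature beta cells (chr13:3940688-3945349, minus strand), went from 149, 203 and 198 CPM to 10.5, 6.23 and 10.6 (20.2-fold lower, log2 -4.34, SE 0.21). Slc2a2, the glucose transporter GLUT2 (chr3:28697903-28731359, plus strand), went from 111, 213 and 209 CPM to 29.4, 21.7 and 36.0 (log2 -2.61, SE 0.28). G6pc2, a glucose-6-phosphatase catalytic subunit, fell 8.37-fold (log2 -3.07, SE 0.18). For these genes too, the treated libraries lay below the untreated ones without overlap.

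The hormone genes themselves behaved otherwise. Ins1 stood at 41500, 45348 and 42720 CPM without cytokines and at 48792, 26418 and 45689 with them (log2 -0.10, SE 0.20, edgeR adjusted p = 0.68). Ins2 stood at 72121, 77150 and 69603 without and 103380, 58332 and 93536 with them (log2 0.22, SE 0.20, edgeR adjusted p = 0.34), and Iapp, islet amyloid polypeptide, at 9166, 11123 and 12364 without and 9969, 5136 and 8088 with them (log2 -0.49, SE 0.20, edgeR adjusted p = 0.051). In all 3 genes the groups overlapped, with treated replicate 2 the lowest of the 6 libraries. Iapp was lower in each of 25 settings tried (log2 -0.73 to -0.21) and passed the threshold in 7 of them. Without treated replicate 2 Ins2 rose by log2 0.49 (edgeR adjusted p = 0.0097). Ins1 and Ins2 are close copies that may share reads. Cpe, which trims prohormones, and the granule protein Chgb rose by log2 0.58 (SE 0.18) and 0.56 (SE 0.14), Cpe with overlapping groups.

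Receptors, channels and the release machinery of the beta cell were mostly lower. Of 33 receptors controlling insulin release 22 fell and 4 rose (median -1.71, and -1.12 without untreated replicate 1). Glp1r, the incretin receptor (chr17:30901817-30940791, plus strand), went from 738, 824 and 702 CPM to 141, 78.4 and 129 (log2 -2.70, SE 0.19, edgeR adjusted p = 3.1e-07). Ffar1, a fatty acid receptor, fell by log2 3.11 (SE 0.22), Casr, the calcium sensor, by 3.13 (SE 0.15) and Gpr119, a lipid receptor, from 9.36, 9.71 and 10.7 CPM to 0.565, 0.182 and 0.358, 27.6-fold. Of 34 ion channel genes 25 fell and 3 rose (median -1.17), among the fallen the potassium channels Kcnk16 (log2 -3.42, SE 0.23) and Kcnh6 (-3.07, SE 0.20) and the calcium channel Cacna1d (-2.03, SE 0.13).

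The 55 exocytosis and granule genes were less uniform, with 26 lower and 12 higher (median -0.35). The Rab proteins and their effectors, which dock granules, fell in 10 of 13 and rose in 1 (median -1.17), with Rab3a going from 71.7, 69.5 and 70.7 CPM to 18.5, 13.1 and 16.6 (log2 -2.14, SE 0.12) and Rab27a falling by 2.02 (SE 0.13). Of 22 SNARE proteins and regulators, 6 rose and 8 fell (median 0.09), and of 20 granule proteins 5 rose and 8 fell (median -0.33). Over all genes 28.8% rose and 33.6% fell. Without treated replicate 2 the whole list had 17 higher and 23 lower genes and a median of -0.20, and with library totals alone the median was -0.59. The 20 genes normally low in mature beta cells had 11 higher and 3 lower members (median 0.88). At least 2-fold changes covered 8 higher and 2 lower members, and the largest rise was log2 2.96. Against that direction, Neurog3 and Fev, of endocrine progenitors, fell by log2 3.74 (SE 0.25) and 4.22 (SE 0.17). Aldh1a3, often used as a mark of dedifferentiation, had log2 0.01 (SE 0.30) with overlapping groups. Without treated replicate 2 that list had 10 higher and 2 lower genes and a median of 0.46.

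Markers of the other endocrine cells were lower as well. Alpha cell markers fell in 9 of 13 genes and 1 rose (median -1.54). Gcg, which encodes glucagon (chr2:62474530-62483650, minus strand), went from 15190, 17854 and 18614 CPM to 7481, 6185 and 7201 (log2 -1.31, SE 0.15, edgeR adjusted p = 1.7e-05). Delta cell markers fell in 6 of 9 (median -1.05), with Sst, somatostatin, at log2 -1.93 (SE 0.20). Pancreatic polypeptide cell markers fell in 6 of 7 (median -1.88), with Ppy at -1.33 (SE 0.22) and Pyy at -2.70 (SE 0.14). Unlike Ins1 and Ins2, these hormone genes had no overlap between treated and untreated libraries.

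Cells outside the endocrine group went in several directions. Endothelial markers fell in 17 of 18 genes (median -1.59), and their share of counts went from between 0.118% and 0.122% to between 0.0315% and 0.0448%. Kdr, the VEGF receptor (chr5:75932827-75978458, minus strand), was at 133, 142 and 145 CPM without and at 18.3, 20.3 and 21.2 with cytokines (log2 -2.81, SE 0.14, edgeR adjusted p = 2.3e-08). Acinar markers fell in 11 of 23 genes and rose in 0 (median -1), and their share of counts ranged from 0.303% to 0.497% in untreated libraries and was 0.170%, 0.0978% and 0.383% in treated replicates 1, 2 and 3. Without treated replicate 3, 18 of them fell and 0 rose, without treated replicate 2, 7 fell and 1 rose, and without treated replicate 1 or untreated replicate 1, 7 fell and 0 rose. Keratin genes Krt8 (log2 1.62, SE 0.13) and Krt18 (1.32, SE 0.12) and the tight junction gene Cldn4 (1.52, SE 0.12), which other epithelial and injured cells also use, rose among the ductal markers, 5 of 14 higher and 0 lower (median 0.46), while Krt19, Sox9 and Cftr, the defining genes, did not pass. Without treated replicate 2 the ductal list had 5 higher and 2 lower genes and a median of 0.067. Stellate and fibroblast markers had 6 higher and 2 lower of 15 (median 0.60). Without treated replicate 2 the counts were 3 and 3 (median 0.23), without untreated replicate 2 or untreated replicate 3 they were 3 and 2, and with library totals alone 2 and 2. Of 10 Schwann cell markers 2 rose and 3 fell, and both tested red blood cell genes fell (median -3.78).

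Genes that build and cut the matrix rose in 18 of 28 (median 1.14), and in 16, with 2 lower and a median of 0.75, without treated replicate 2. The metalloproteinases led: Mmp13, a collagenase, went from 1.58, 1.59 and 1.22 CPM to 99.8, 201 and 106 (log2 6.53, SE 0.37), Mmp10 rose by log2 7.72 (SE 0.58) and Mmp9 by 4.89 (SE 0.47). In each of these the highest treated value was that of replicate 2. The part of stellate cells in these values was not tested.

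**Figure D3:**
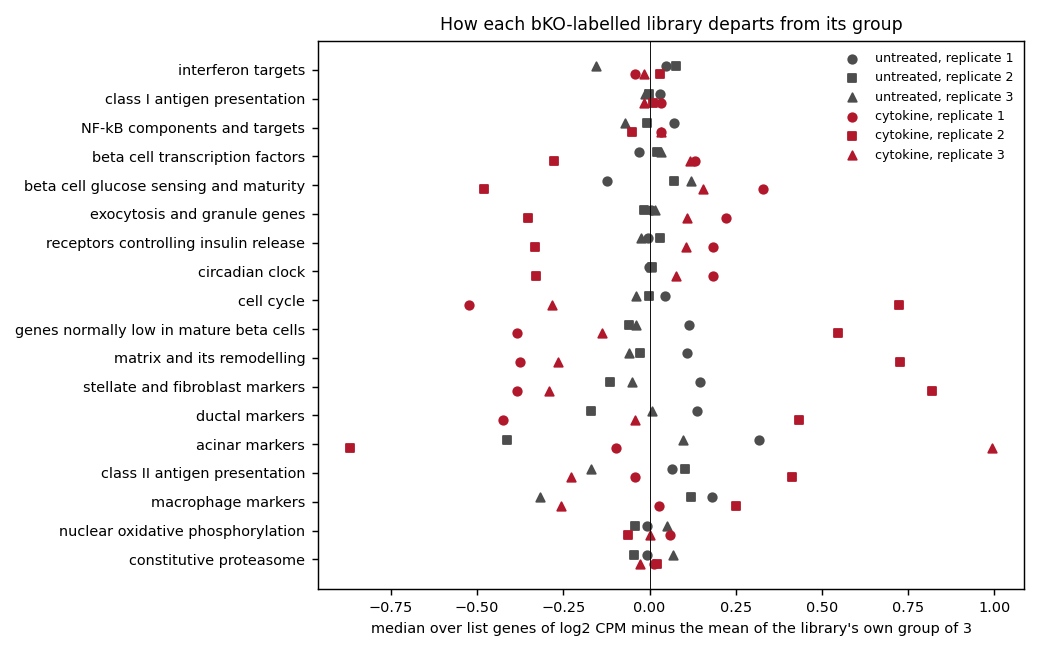
Departure of each library labelled bKO from its own group (x axis), as the median over the genes of a list of log2 CPM minus the mean of the 3 libraries of that group. Treated replicate 2 (red square) lies at 0.82 for stellate and fibroblast markers, 0.72 for cell cycle genes and -0.48 for glucose sensing and maturity genes, but at 0.03 for interferon targets.

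Stress pathways were unevenly engaged. Of 17 genes of the PERK and ATF4 branch of the endoplasmic reticulum stress response 12 rose and 3 fell (median 0.66). Ddit3, the CHOP factor (chr10:127290774-127296288, plus strand), went from 16.4, 16.6 and 16.9 CPM to 238, 112 and 191 (log2 3.44, SE 0.24, edgeR adjusted p = 3.1e-07), Atf3, a factor of the same branch, from 8.12, 6.91 and 7.40 to 104, 75.3 and 102 (log2 3.65, SE 0.13), and Ppp1r15a, which restarts translation, rose 5.4-fold. The chaperones and degradation factors under ATF6 and XBP1 had 10 higher and 9 lower genes of 30 (median 0.09), near the 28.8% and 33.6% of all genes. Without treated replicate 2 they had 14 and 8 (median 0.21). Hspa5, the main chaperone BiP, was at 1315, 1324 and 1449 CPM without and 2036, 1533 and 1938 with cytokines (log2 0.43, SE 0.11, edgeR adjusted p = 0.0061), and with library totals alone its log2 of 0.20 did not pass. Pdia4, a disulfide isomerase of the same list, stood at 174, 176 and 194 without and 172, 196 and 173 with cytokines.

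Antioxidant genes rose in 28 of 34 and 1 fell (median 1.11). Sod2, the mitochondrial superoxide dismutase and an NF-kB target (chr17:13006846-13040063, plus strand), went from 77.1, 76.0 and 78.0 CPM to 894, 699 and 816 (log2 3.38, SE 0.095, edgeR adjusted p = 3.7e-10). Srxn1, which restores peroxiredoxins, rose by log2 1.83 (SE 0.071), Gpx1 by 2.17 (SE 0.11), and Gclm and Gsr of glutathione supply by 1.48 (SE 0.089) and 1.34 (SE 0.072). Heat shock genes rose in 16 of 22 and 1 fell (median 0.69): the inducible Hspa1b went from 8.06, 6.26 and 6.45 CPM to 198, 148 and 186 (log2 4.67, SE 0.18) and its neighbouring copy Hspa1a rose by 5.49 (SE 0.24), while Hspa4 and Dnaja1 had log2 -0.02 each. Among immediate early genes 19 of 27 rose and 5 fell (median 0.76), with the growth arrest gene Gadd45b at 3.16 (SE 0.18) and Jun at 1.35 (SE 0.11), and with the nuclear receptor Nr4a2 at -2.11 (SE 0.13).

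Genes on both sides of the cell death machinery rose. Of 35 promoting genes 21 rose and 2 fell (median 0.45), and of 16 opposing genes 9 rose and 1 fell (median 0.60), or 10 and 3 without treated replicate 2. Casp4, of inflammatory cell death (chr9:5308828-5336783, plus strand), went from 2.49, 2.20 and 1.97 CPM to 34.6, 40.5 and 35.3 (log2 4.05, SE 0.18, edgeR adjusted p = 9.2e-09), and Mlkl, the pore former of necroptosis, from 10.5, 9.74 and 9.70 to 112, 112 and 110 (log2 3.48, SE 0.097). Bid, which links death receptors to mitochondria, rose 4.69-fold. Of the opposing genes Birc3 rose by log2 3.18 (SE 0.12), Bcl2l1 by 1.02 (SE 0.11) and Cflar by 0.71 (SE 0.080), and Bcl2l2 fell by 0.52 (SE 0.060), while Xiap stood at 54.4, 63.0 and 68.8 CPM without and 54.5, 73.0 and 59.2 with cytokines.

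The count of fallen cell cycle genes depended on which treated library was left out. Of 50, 5 rose and 17 fell (median -0.57), against 33.6% of all genes that fell. Without treated replicate 2, 40 fell (median -1.05), without treated replicate 1, 11 fell (-0.35), and without treated replicate 3, 9 fell (-0.38). Ccna2, cyclin A2, chosen after its values were seen, shows the pattern, with 10.5, 10.3 and 10.1 CPM without and 1.67, 8.50 and 2.15 with cytokines. The inhibitor Cdkn1a rose in all libraries, from 96.5, 82.1 and 81.2 to 247, 242 and 265 CPM (log2 1.54, SE 0.10), and Cdkn1b fell by log2 0.71 (SE 0.075). Cdk4 stood at 129, 122 and 122 CPM without and 127, 123 and 125 with cytokines.

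Most respiratory chain genes encoded in mitochondria were lower. Of the 13 genes encoded in mitochondrial DNA 8 fell and 1 rose (median -0.90). mt-Nd1, of complex I, went from 1855, 2058 and 2161 CPM to 735, 1077 and 734 (log2 -1.25, SE 0.14, edgeR adjusted p = 1.1e-05), mt-Nd2 fell by 1.36 (SE 0.15) and mt-Cytb by 0.99 (SE 0.12), whereas mt-Co1 of complex IV rose by 0.44 (SE 0.10). Of the 74 nuclear subunits 39 rose and 4 fell, by small amounts (median 0.18). Complex IV rose in 10 of 10 (median 0.53), with Cox5a at 49.1, 48.3 and 52.3 CPM without and 79.5, 82.5 and 80.9 with cytokines. Complex I rose in 11 of 36, near the 28.8% of all genes. It fell in 4, against 33.6% of all genes, among them Ndufs1 (log2 -0.56, SE 0.057). With library totals alone the nuclear list had 19 higher and 22 lower genes and a median of -0.05, so its direction rests on the scaling, while mt-Nd1 and the other mitochondrial genes named here as fallen moved further down.

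Glycolysis genes rose more often than they fell. Of 30 glycolysis genes 19 rose and 8 fell (median 0.72). Slc2a1, the glucose transporter GLUT1 (chr4:119108711-119137983, plus strand), rose from 70.6, 67.5 and 55.4 CPM to 459, 496 and 541 (log2 2.95, SE 0.16, edgeR adjusted p = 4.3e-08) while GLUT2 fell. Hk2, a hexokinase that mature beta cells hardly use, rose from 16.2, 13.6 and 12.2 CPM to 82.0, 154 and 90.8 (log2 2.96, SE 0.25). Pfkfb3 rose by log2 2.5 (SE 0.18) and its sister Pfkfb2 fell by 1.86 (SE 0.15), and Hif1a, a regulator of these genes, rose by 1.40 (SE 0.086). Genes of the pentose phosphate, serine and one-carbon routes rose in 13 of 23 and fell in 4 (median 0.51), with Pgd, which yields NADPH, at 1.65 (SE 0.10) and Mthfd1 at -1.19 (SE 0.077).

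The TCA cycle list had 10 higher and 8 lower genes of 34 (median 0.09). For this list and the others of this paragraph, the shares over all genes were 28.8% higher and 33.6% lower. Acod1, which diverts aconitate to itaconate (chr14:103046977-103056573, plus strand), rose from 0.428, 0.598 and 0.263 CPM to 232, 230 and 228 (log2 9.05, SE 0.22, edgeR adjusted p = 1.8e-10). Pcx, pyruvate carboxylase, went from 146, 155 and 142 to 70.6, 50.4 and 65.7 CPM (log2 -1.25, SE 0.12), and Ogdh fell by 0.70 (SE 0.065), while Mpc1, the pyruvate carrier, rose by 0.98 (SE 0.086). Fatty acid oxidation had 14 higher and 5 lower genes of 30 (median 0.08), with Acadl at 1.21 (SE 0.096) and Hadh, which also restrains insulin release, at -1.52 (SE 0.12). In fatty acid and triglyceride synthesis, 9 rose and 7 fell of 26 (median 0.08), and 11 and 12 (median -0.043) without treated replicate 2. Acly, which exports acetyl units from mitochondria, went from 3242, 3264 and 3128 CPM to 1062, 683 and 1064 (log2 -1.78, SE 0.15), and the lipid droplet gene Plin2 rose by 1.97 (SE 0.13). Cholesterol genes had 11 higher and 7 lower of 29, with Ch25h, an interferon-induced hydroxylase, at 3.28 (SE 0.43). The medians of the TCA cycle, both fatty acid lists and cholesterol turn negative with library totals alone, between -0.09 and -0.15.

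**Figure D4:**
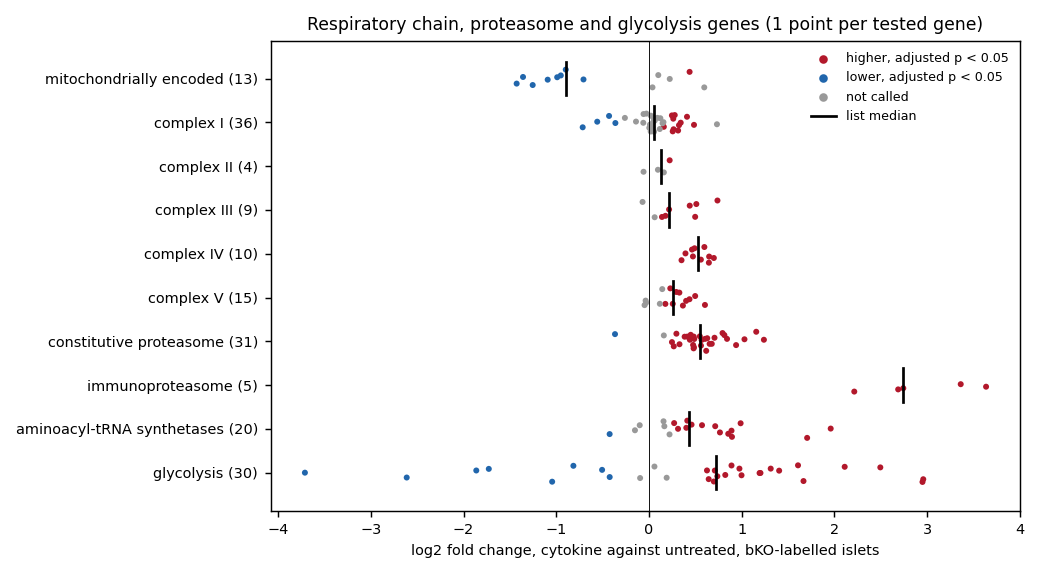
Log2 fold change of each tested gene (point) of the respiratory chain by complex, the proteasome, aminoacyl-tRNA synthetases and glycolysis, cytokine against untreated, in islets labelled bKO (x axis), with list medians as bars. Mitochondrially encoded genes centre on -0.90 and complex IV on 0.53, and the immunoproteasome (2.74) lies above the constitutive proteasome (0.55).

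Genes of protein synthesis and turnover rose more often than they fell, with list medians from 0.19 to 0.78 on the log2 scale. Constitutive proteasome genes rose in 29 of 31 and 1 fell (median 0.55), with Psmd8 going from 123, 108 and 112 CPM to 286, 255 and 269 (log2 1.24, SE 0.076, edgeR adjusted p = 1.2e-07), and with library totals alone 24 rose and 1 fell. Cytosolic ribosomal protein genes rose in 81 of 86 and 1 fell (median 0.78), with 79 and 3 under library totals. Mitochondrial ribosomal protein genes rose in 38 of 77 and fell in 14 (median 0.19), a balance that library totals turned to 20 and 25. Many of these have processed copies in the genome that could share their reads. Aminoacyl-tRNA synthetases rose in 14 of 20 and 1 fell (median 0.44), with Wars, the tryptophan enzyme that IFN-gamma induces, at log2 1.96 (SE 0.088) and Kars at 1.71 (SE 0.11). Prostaglandin and other eicosanoid genes rose in 10 of 16 and 1 fell (median 0.78), with Ptgs2, cyclooxygenase-2, at 3.13 (SE 0.29). Of 21 clock genes 10 rose and 4 fell, with Nr1d1 at 1.81 (SE 0.16) and Per3 at -1.14 (SE 0.14).

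Some of the largest rises were those of genes not described above. Serpina3f, a protease inhibitor of the alpha-1-antichymotrypsin cluster, rose from 0.122, 0.0729 and 0.0619 CPM to 206, 213 and 194 (log2 11.19, SE 0.18, edgeR adjusted p = 1.6e-11). Ltf, lactoferrin, of the acute phase and complement list, went from 0.0765, 0.204 and 0.0464 CPM to 118, 361 and 114 (log2 10.78, SE 0.67), and Ubd, a ubiquitin-like modifier also called FAT10, rose by 9.37 (SE 0.44). Sectm1b had 0 counts in the 3 untreated libraries and 4.28, 9.88 and 6.77 CPM in the treated ones, and Gphb5, a glycoprotein hormone subunit, 1 count in all without and 10.1, 12.1 and 14.6 CPM with cytokines. These genes went from near absence to clear expression in every treated library.

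The largest fall among genes that reached 5 CPM was that of Edn3, which encodes endothelin-3 (chr2:174760619-174784042, plus strand), from 23.2, 20.2 and 21.6 CPM to 0.188, 0.218 and 0.224, 102-fold (log2 -6.67, SE 0.17, edgeR adjusted p = 2.4e-10). Sfrp5, a secreted Wnt antagonist, went from 23.5, 27.3 and 24.4 CPM to 0.306, 0.218 and 0.648 (65.1-fold lower), and A1cf, an RNA-binding cofactor of mRNA editing, from 7.69, 9.35 and 7.69 to 0.259, 0 and 0.156. Map3k19, a kinase, fell 65.3-fold, the neuronal-type gene Ankrd34c 37.9-fold, Cd300lg, a gene of capillary endothelium, 29.9-fold and Kl, klotho, 21.3-fold. At the other end, 18.3% of tested genes had a 95% interval of the log2 fold change within 0.5 of 0. The list members with the smallest changes over 50 CPM were Ndufb7, Cdk4, Xiap, Pdia4, Ndufb8, Ptpn11, Dnaja1, Hspa4, Ndufv3 and Suclg2, from -0.03 to 0.02, and they moved to between -0.26 and -0.21 with library totals alone.

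No gene was called for a difference between the response of islets labelled bKO and that of controls. The edgeR test of the difference called 0 genes (0% of 19800), with 2162 at an unadjusted p under 0.05, and the smallest adjusted p was 0.213. DESeq2 called 186. The median of the interferon targets was 3.84 against 4.01 in controls, of NF-kB genes 2.85 against 2.34, of class I genes 2.83 against 3.02, of beta cell transcription factors -0.89 against -0.94 and of glucose sensing and maturity genes -1.08 against -0.51. Without treated bKO replicate 2 the bKO medians were, in the same order, 3.92, 2.69, 2.89, -0.76 and -0.79, so part of the glucose sensing and NF-kB gaps rests on that library. None of these pairs of medians was tested, and in no list was a member called for the difference by edgeR.

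Among the genes with the smallest p for the difference, Gbp8 rose less in islets labelled bKO, by log2 4.97 from 6.20, 7.82 and 8.93 CPM to 264, 208 and 245, against 6.42 in controls, a difference of -1.46 (SE 0.23, edgeR adjusted p = 0.213). Gbp8 is a close copy of other guanylate-binding protein genes. Serpina3i had log2 1.99 against 4.07, and Rps3a1, a ribosomal protein gene with many copies, -0.20 against 1.08. On the other side, Mapk13, a p38 kinase, rose by 2.01 against 0.82 in controls (difference 1.19), and Apol7a by 4.21 against 1.75. For other members the difference was smaller than its error: Cxcl10 0.09 (SE 0.25), Icam1 0.01 (SE 0.15) and Nos2 0.16 (SE 0.48). At Irf1 (-0.23, SE 0.12) and Pdx1 (-0.20, SE 0.14) it exceeded its error and was not called. Larger, uncalled differences stood at Cd274 (-0.48, SE 0.13), Psmb9 (-0.49, SE 0.13) and Ucn3 (-0.95, SE 0.27), with edgeR adjusted p of 0.303, 0.293 and 0.312. An adjusted p above the threshold does not show that the responses were alike.

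**Figure D5:**
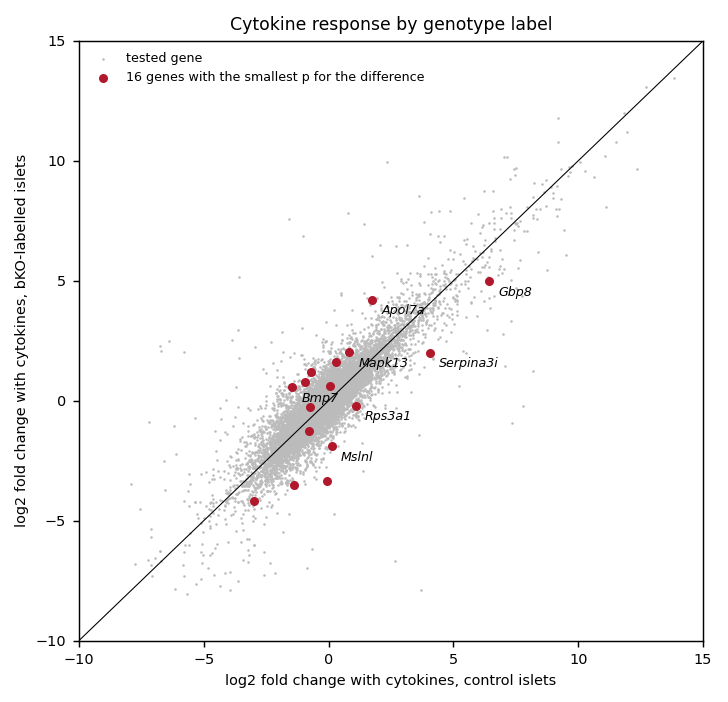
Log2 fold change with cytokines in islets labelled bKO (y axis) against that in control islets (x axis) for each tested gene (grey), with the line of equal response; red points are the 16 genes with the smallest p for the difference. Most genes lie along the line, and the red points, such as Gbp8 (4.97 against 6.42), lie off it by differences that did not pass the test.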

How the data were processed

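RNA-seq counts per gene were deposited for 12 libraries. Per the submitters' processing notes, the authors used FastQC 0.11.7, cutadapt 1.16, STAR 2.5.2a, featureCounts 1.6.2, DESeq2 1.30.0 and the GRCm38 build to make the deposited counts and their own comparisons. The annotation release and the strand setting are not stated there, so reads of a gene and an antisense partner may be mixed.

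The raw counts were fitted in R 4.3.3 with edgeR 4.0.16: TMM scaling, filterByExpr over the 4 groups, 1 coefficient per group over all 12 libraries, and quasi-likelihood tests of the cytokine contrast and of the difference between genotypes, adjusted over 19800 genes at 0.05. CPM values are counts scaled by TMM library size. Alternatives used DESeq2 1.42.0, limma 3.58.1, other scalings, filters and left-out libraries. The fitting script was tested on simulated data. Gene positions are from GENCODE M21 (GRCm38), and promoters from RefSeq (GRCm38.p6).

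The 51 gene lists and their members were chosen with earlier results of these data known, and are described without a test. Named genes are the 15 largest changes in each direction among called genes at 5 CPM or more without overlap (predicted genes and pseudogenes left out), up to 5 per list with the smallest adjusted p, up to 8 per sign for the difference, 10 steady list members over 50 CPM, and a set of cytokine, beta cell and stress genes; list genes with a group of 3 counts or fewer were not named. The following were chosen after their values were seen: Aldh1a3, Birc2, Ccl25, Ccna2, Cftr, Chgb, Cpe, Cx3cr1, Cxcl12, Cxcl13, Cxcl14, Cyld, Eif2ak2, Esr1, Foxa1, Gbp2, Gch1, Glis3, Igtp, Il1r1, Irf2, Isg15, Krt19, Nfkbia, Rxrg, Socs3, Sox9, Trim25 and mt-Co1. Some genes selected this way are not reported here.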

Additional observations from a re-analysis of the deposited data

How the results depend on the processing

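The counts of 5711 higher and 6647 lower genes ranged from 5007 to 6026 and from 5970 to 6662 when 1 library was left out, and no alternative gave a gene called in the opposite direction. Against a minimum change of 2-fold (glmTreat) 1454 genes were higher and 1821 lower. For the difference between genotypes, DESeq2 called 186 genes, no filter on low counts 1 (Gbp8), and leaving out 1 library 0 to 3: without untreated bKO replicate 3 the called genes were Cd1d2, Rps3a2 and Rps3a3, and without untreated control replicate 2 it was Rps3a1. The cause was not tested.

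Whether the replicate numbers pair the libraries stayed undecided. Correlations of same-numbered deviations from the group means were -0.02, 0.10 and 0.09 in bKO and -0.10, 0.05 and -0.03 in controls. Those of differently numbered libraries ran from -0.12 to 0.07 in bKO and from -0.16 to 0.19 in controls. Deviations from means of 3 libraries are too few to decide it. With the number as a block, 5278 genes were higher, 6356 lower and 0 differed between genotypes.

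Scaling by library totals alone turned the medians of the lists of T cell markers (-0.13), Schwann cell markers (-0.11), ATF6 and XBP1 targets (-0.15), nuclear oxidative phosphorylation (-0.053), TCA cycle (-0.15), fatty acid oxidation (-0.15), fatty acid and triglyceride synthesis (-0.12), cholesterol (-0.087) and circadian clock (-0.11), and the log2 fold changes of Ptpn11 (-0.22), Cdk4 (-0.23), Ndufb7 (-0.23), Ndufv3 (-0.21) and Ndufb8 (-0.22). That scaling moved the median of all genes by -0.23. The B cell median of 0.61 became -0.47 with limma-voom and -0.36 with the block, and -0.55 to 0.81 with 1 library left out. Fatty acid and triglyceride synthesis became -0.021 with limma-voom and -0.023 with the block, and -0.043 to 0.17 with 1 library left out, lowest in both lists without treated bKO replicate 2. Tryptophan and NAD metabolism (-0.05) became 0.019 with DESeq2 size factors, 0.011 with TMM without acinar and abundant genes, 0.018 with DESeq2, and -0.10 to 0.064 with 1 library left out. With DESeq2 size factors 6293 genes were higher and 6023 lower, and at 1 CPM in 3 libraries 4925 and 5694. With 1 library left out, the medians ranged from 0.052 to 0.15 for the TCA cycle, 0.038 to 0.18 for fatty acid oxidation, 0.082 to 0.33 for cholesterol and 0.0025 to 0.27 for the clock list. Few counts limit the B and T cell values.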
